A study of Homo sapiens with 6 samples.

Results

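The 10 genes described here are members of the BCL2 family, which sets whether a cell survives or dies through its mitochondria: BCL2, BCL2L1, MCL1, BAK1, BCL2L11, BAD, BID, BIK, HRK and BMF. They were taken by their symbol from a table of 58174 genes, each matched 1 row, and all 10 were among the 19040 genes with enough reads to be tested. Positions are given on GRCh38. The cells were PC9, an established human lung adenocarcinoma line known to depend on mutant EGFR. The knockdown group was 3 libraries of PC9 cells given an antagomir against tsRNA-5001a, one of the small RNAs that arise from transfer RNAs, and the control group was 3 libraries given a negative control antagomir. Antagomirs are antisense oligonucleotides, modified for stability, that bind a small RNA and block it. The comparison asked how blocking this tsRNA bears on messenger RNA levels. The labels state neither dose nor time of treatment. Gene counts do not measure the tsRNA itself, so its level could not be checked.

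The family has 3 kinds of member. Survival proteins, among them BCL2, BCL-XL (from BCL2L1) and MCL1, hold the effectors BAX and BAK (from BAK1) in check. Once freed or activated, the effectors form pores in the outer mitochondrial membrane, which release cytochrome c and start the caspases. BH3-only proteins, here BIM (from BCL2L11), BAD, BID, BIK, HRK and BMF, sense damage or lost growth signals and bind the survival proteins through a short helix called the BH3 domain. In EGFR-driven lung cancer cells BIM is known as a main trigger of death when EGFR signalling is shut off.

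Libraries held 32342017 to 40066223 gene counts. All 6 epithelial markers, EPCAM, CDH1 and 4 keratins, were above 1 TPM (a level per transcript length) in each library, with a summed level of 12127 to 15692 TPM in knockdown and 13196 to 13924 TPM in control libraries. Of 3 lung lineage markers, SFTPB was at most 0.118 TPM and NAPSA 1.54 to 3.30 TPM. NKX2-1 had 1.03, 0.670 and 0.427 TPM in knockdown and 0.0414, 0.198 and 0 TPM in control libraries, low but without overlap. The summed level of 4 fibroblast markers was 15.5 to 26.3 TPM in knockdown and 10.5 to 13.9 TPM in control libraries, 1 of the 4 above 1 TPM throughout, with COL3A1 at most 0.0348 TPM. Among them PDGFRB had 2.44, 2.23 and 3.58 TPM in knockdown and 0.367, 0.163 and 0.278 TPM in control libraries, which did not overlap. The summed level of 4 immune markers was 61.1 to 77.7 TPM in knockdown and 50.9 to 64.3 TPM in control libraries, nearly all from CD68, with PTPRC at most 0.542 and CD3E at most 0.0501 TPM. That of 3 endothelial markers was 17.0 to 24.4 TPM in knockdown and 12.1 to 18.6 TPM in control libraries, 2 of the 3 above 1 TPM throughout, with VWF at most 0.0976 TPM. Their part in the results was not tested. Whether the 3 libraries of each group stem from independent cultures is not stated, so all p-values refer to the variation among these 6 libraries and that variation could be technical.

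PC9 cells carried RNA of all 10 genes, over a wide span of levels. Levels between genes are given in the authors' TPM, which takes transcript length into account. BAD, which binds survival proteins when growth factor signalling falls, had the highest mean in both groups, at 127 ± 22.8 TPM in knockdown and 130 ± 1.62 TPM in control libraries (SD, n = 3 each). MCL1 came next, at 110 ± 24.4 TPM in knockdown and 87.4 ± 4.33 TPM in control libraries. BCL2L1 followed at 98.6 ± 0.694 TPM in knockdown and 75.2 ± 5.95 TPM in control libraries. In the knockdown group neighbours in this order overlapped: BAD at 108 to 153 TPM overlapped MCL1 at 92.8 to 138 TPM, which overlapped BCL2L1. BAD and BCL2L1, the latter at 97.8 to 99.2 TPM, did not overlap there. In the control group the libraries of BAD, MCL1 and BCL2L1 did not overlap. BCL2 itself stood last, at 0.952 ± 0.319 TPM in knockdown and 0.661 ± 0.297 TPM in control libraries, so that MCL1 and BCL2L1 made up almost all TPM of the 3 survival genes. Between BCL2L1 and BCL2 ran BID, BAK1, BMF, BIK, BCL2L11 and HRK, in that order in both groups. BIK and BCL2L11 overlapped in both groups and BMF and BIK in the control group.

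**Figure D1:**
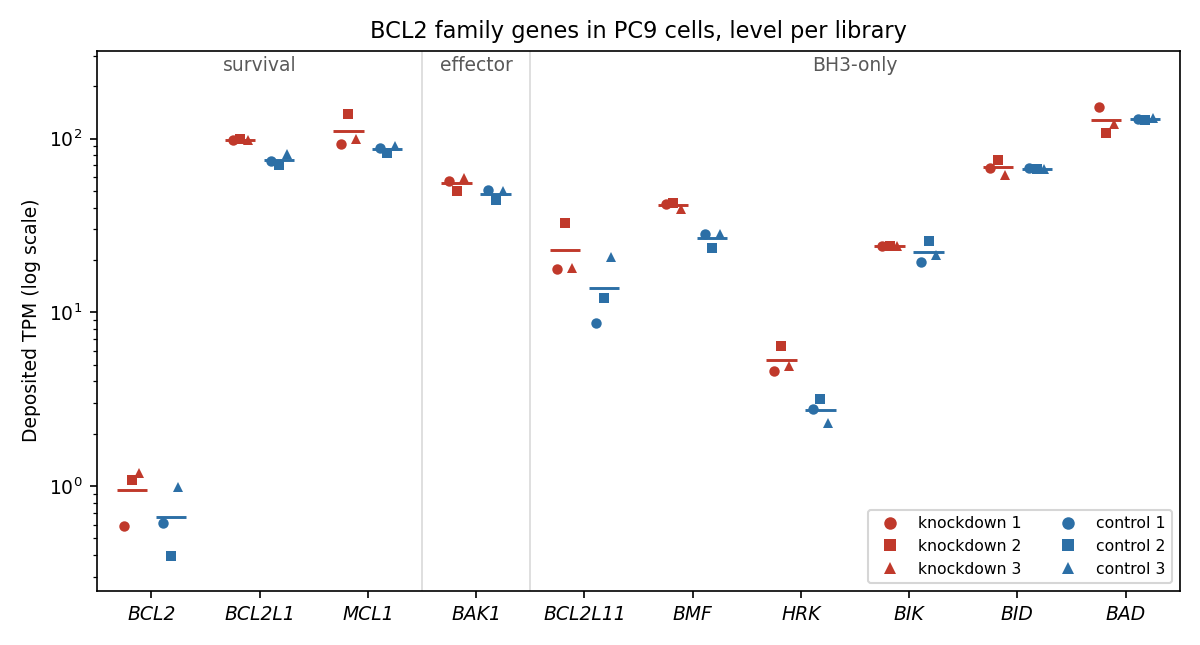
Deposited TPM of the 10 BCL2 family genes (log axis) in each library, knockdown in red left of control in blue, with symbols for the replicate number and bars for the group mean. BAD, MCL1 and BCL2L1 stand highest, HRK and BCL2 lowest. The libraries of HRK, BMF, BCL2L1 and MCL1 do not overlap between groups on this scale, on which the median of all tested genes was 0.24 log2 units higher in knockdown libraries.

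Summed over the 3 survival genes, TPM was 191, 239 and 200 in knockdown libraries and 163, 153 and 174 in control libraries. The 6 BH3-only genes summed to 308, 290 and 269 TPM in knockdown and 257, 259 and 271 TPM in control libraries. On log2(TPM + 0.5) the median of all tested genes was itself 0.24 higher in knockdown libraries. As a share of all member TPM, which does not depend on the scaling of a library, survival genes made up 34.3%, 41.2% and 37.9% in knockdown and 34.6%, 33.5% and 35.2% in control libraries. BH3-only genes made up 55.4%, 50.1% and 51.0% in knockdown and 54.7%, 56.8% and 54.8% in control libraries. In both cases knockdown library 1 lay among the controls, so the shares of the groups overlapped.

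None of the 10 genes passed the test between groups. By edgeR's quasi-likelihood test with Benjamini-Hochberg adjustment over all genes, 0 of 10 had an adjusted p under 0.05, against 1.17% of all tested genes, 1.10% being higher and 0.0735% lower. At an unadjusted p under 0.05 there were 2, HRK and BMF, against 16.5% of all genes, and both were higher in knockdown, against 9.77% of all genes. DESeq2 also called 0 of 10 beside 3.69% of all genes, and 2 at an unadjusted p under 0.05 beside 15.6%. With limma-voom the members called were 0 beside 1.16%, and 2 unadjusted beside 16.6%. On log2(TPM + 0.5), limma called 0 members beside 2.04% of all genes, and 3 unadjusted beside 21.7%. With a pseudocount of 0.1 these were 0 beside 1.97% and 3 beside 21.4%, and with median-centring 0 beside 0.714% and 2 beside 15.2%. In CPM, counts scaled to a common library size by the TMM method, the libraries of the groups did not overlap for 5 members, against 24.3% of all genes. These were HRK, BMF and BCL2L1, higher in all knockdown libraries (13.4% of all genes), and BAD and BID, lower in all of them (10.8%). The median log2 fold change, knockdown over control, was 0.12 for the members and 0.05 for all genes. In bulk RNA, fewer cells with a transcript and less of it per cell cannot be told apart.

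**Figure D2:**
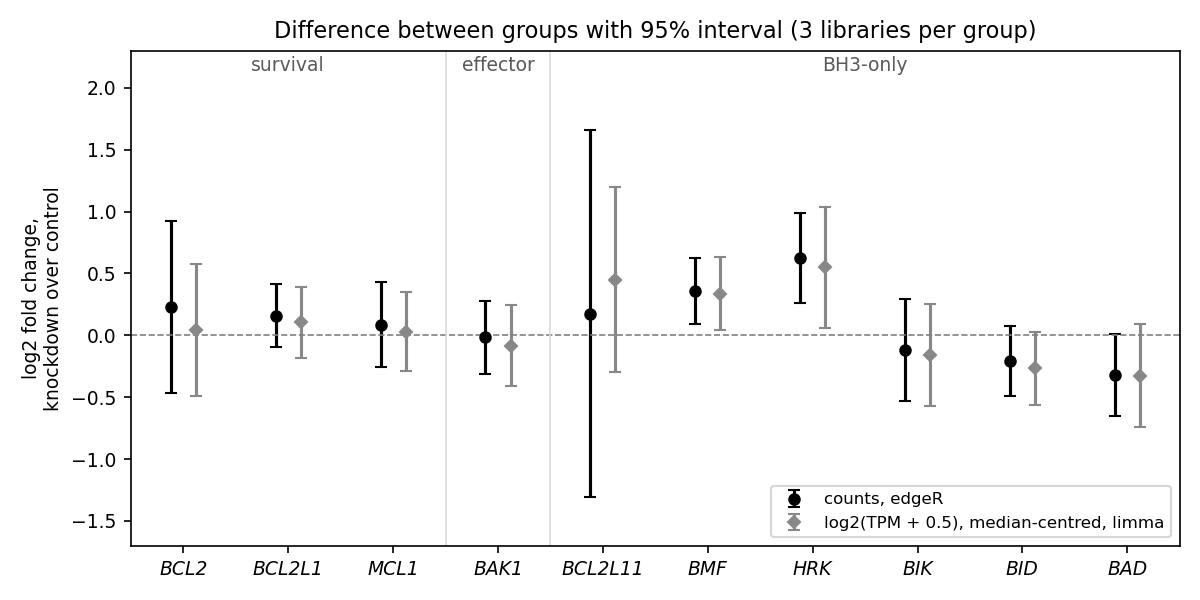
Log2 fold change of each BCL2 family gene, knockdown over control, with 95% intervals (3 libraries per group), from counts by edgeR (black) and from median-centred log2(TPM + 0.5) by limma (grey). Intervals of HRK and BMF lie above 0 before adjustment over all genes, BAD and BID sit below 0 with intervals that reach it, and that of BCL2L11 on counts runs from -1.31 to 1.66.

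Among the survival genes, BCL2L1 (ENSG00000171552; chromosome 20, 31664452 to 31723989, minus strand) had 129, 120 and 124 CPM in knockdown libraries and 104, 114 and 117 CPM in control libraries. The lowest knockdown library was just above the highest control library. It differed by 0.16 in log2 (standard error 0.11, 95% interval -0.10 to 0.41; edgeR adjusted p 0.517), so a difference beyond 1.33-fold upward lay outside the interval. MCL1 (ENSG00000143384; chromosome 1, 150574551 to 150579738, minus strand), whose protein is short-lived, had 194, 274 and 199 CPM in knockdown and 200, 215 and 213 CPM in control libraries. Knockdown library 2 alone was high, and the other knockdown libraries lay just under all controls. On the log2 scale the difference was 0.09 (interval -0.26 to 0.43, edgeR adjusted p 0.813), and it was -0.10 without knockdown library 2. BCL2 (ENSG00000171791; chromosome 18, 63123346 to 63320128, minus strand) had only 79, 117 and 145 counts in knockdown and 92, 58 and 128 in control libraries. The groups overlapped. The log2 fold change of BCL2 was 0.23 (edgeR adjusted p 0.748). The interval ran from a 0.724-fold to a 1.90-fold level, so a difference inside that interval could not be told from 0 with these libraries.

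BAK1 (ENSG00000030110; chromosome 6, 33572547 to 33580293, minus strand), the effector among the members, had the log2 fold change nearest to 0. It had 70.3, 56.3 and 68.6 CPM in knockdown and 65.3, 65.2 and 66.8 CPM in control libraries, with the control values inside the knockdown range. The log2 fold change was -0.02, the interval -0.31 to 0.28 and the edgeR adjusted p 0.962. The 95% interval of the fold was 0.807 to 1.21.

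HRK and BMF, both BH3-only genes, had the lowest p-values of the 10 members. HRK (ENSG00000135116; chromosome 12, 116856144 to 116881441, minus strand), known from neurons that lose their trophic factor and for binding BCL-XL, had 11.0, 12.6 and 10.2 CPM in knockdown libraries and 7.17, 7.56 and 7.20 CPM in control libraries. Every knockdown library was above every control library, and the controls lay close together. This was a 1.54-fold difference, 0.62 in log2, with standard error 0.16 and 95% interval 0.26 to 0.99 (unadjusted p 0.00384, edgeR adjusted p 0.125). Over the 17 alternatives tried its log2 fold change was 0.52 to 0.92 and its adjusted p 0.0526, by DESeq2, to 0.331, so it stayed on the same side of 0 and never passed. BMF (ENSG00000104081; chromosome 15, 40087890 to 40108892, minus strand), whose protein is held on the actin skeleton until a cell detaches or loses survival signals, had 92.8, 83.3 and 81.6 CPM in knockdown and 65.1, 67.0 and 69.0 CPM in control libraries. Again no libraries overlapped. The fold was 1.28, or 0.36 in log2, with standard error 0.12 and 95% interval 0.10 to 0.62 (unadjusted p 0.0134, edgeR adjusted p 0.195). Its range over the alternatives was 0.25 to 0.63, with an adjusted p of 0.0643 to 0.431. The low end was without knockdown library 1, where its unadjusted p was 0.0767. In the authors' TPM, HRK stood at 4.60, 6.42 and 4.91 in knockdown and 2.77, 3.17 and 2.31 in control libraries, and BMF at 41.8, 42.7 and 39.0 in knockdown and 28.3, 23.4 and 28.4 in control libraries. TPM did not overlap for 4 of the 10 members, all higher in knockdown, against 30.0% of all genes, 27.0% being higher and 2.95% lower.

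The 250 bases before the transcription start are printed for HRK and BMF, since these had the lowest p-values, and for BCL2L11, the member with the widest spread. They come from RefSeq on GRCh38.p14, which matched 8 of the 10 symbols, all but MCL1 and BIK, with 15 windows. Each is read 5′ to 3′ on the strand of the gene, and capitals mark matches, on either strand, to a GC box (GGGCGG), an E-box (CACGTG), a cyclic AMP response element (TGACGTCA), a FOXO motif (GTAAACA) or an ATF4 and CHOP type motif (TGATGNAA). No motif searched here is contained in another.
HRK, chr12:116881442-116881691, minus strand: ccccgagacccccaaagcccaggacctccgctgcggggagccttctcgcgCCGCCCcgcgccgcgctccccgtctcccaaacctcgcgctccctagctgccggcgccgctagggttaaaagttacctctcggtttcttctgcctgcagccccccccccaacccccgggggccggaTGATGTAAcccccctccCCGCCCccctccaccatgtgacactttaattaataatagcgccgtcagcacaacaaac
BMF, chr15:40108880-40109129, minus strand: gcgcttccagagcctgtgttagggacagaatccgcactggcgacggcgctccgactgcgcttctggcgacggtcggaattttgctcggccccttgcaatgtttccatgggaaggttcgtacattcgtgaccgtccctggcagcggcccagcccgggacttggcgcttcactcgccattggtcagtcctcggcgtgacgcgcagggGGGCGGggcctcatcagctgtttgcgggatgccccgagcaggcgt
BCL2L11, chr2:111120664-111120913, plus strand: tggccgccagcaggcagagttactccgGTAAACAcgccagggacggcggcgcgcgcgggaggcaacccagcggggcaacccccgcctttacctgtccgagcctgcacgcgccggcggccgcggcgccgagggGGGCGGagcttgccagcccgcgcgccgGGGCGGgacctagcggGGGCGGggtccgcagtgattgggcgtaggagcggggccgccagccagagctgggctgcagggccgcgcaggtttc

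HRK held 2 GC boxes and 1 match to TGATGNAA, a motif present in 3.16% of 34788 human promoter windows of this length. At the printed start, the outer one, BMF held 1 GC box and none of the other motifs. BCL2L11, a textbook FOXO target, held 3 GC boxes and 1 match to GTAAACA, which 2.98% of all windows have. The BCL2L11 window precedes a RefSeq start and lies inside the locus of the gene, which begins at base 111119378. GC boxes occurred in 10 of the 15 member windows, beside 42.6% of all windows. The 15 windows are not independent, since those of BID and of BAD overlap each other. The E-box, in 6.31% of all windows, was in 2 of the BID windows, which overlap and share a single site. No member window held TGACGTCA, found in 1.64% of all. The printed HRK, BMF and BCL2L11 windows were 66.4%, 65.2% and 76.8% G or C, with the median of all windows at 58.0%. RefSeq gives BMF a second start, whose window was 48.8% G or C and held no GC box and none of the other motifs. A match is a description of letters, not evidence that a factor binds there.

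BCL2L11 (ENSG00000153094; chromosome 2, 111119378 to 111168447, plus strand), which encodes BIM, varied within groups more than between them. It had 849, 2303 and 820 counts in knockdown libraries and 361, 889 and 2283 counts in control libraries, or 22.4, 67.8 and 19.3 CPM in knockdown and 9.65, 27.6 and 59.8 CPM in control libraries. Knockdown library 2 and control library 3 were high and control library 1 low, so each group spanned a several-fold range. The groups differed by 0.17 in log2, with standard error 0.65 and 95% interval -1.31 to 1.66 (edgeR adjusted p 0.917). The difference was 0.97 without control library 3, -0.64 without knockdown library 2 and -0.26 without control library 1. In TPM the spread was smaller, at 17.8, 32.8 and 18.01 in knockdown and 8.67, 12.04 and 20.8 in control libraries, with a median-centred log2 fold change of 0.45 (limma adjusted p 0.549).

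For BCL2L11 the ratio of counts to TPM was not the same in each library. The transcript length that the deposited values imply was taken as count over FPKM, scaled so that 3867 genes with 1 annotated transcript met their GENCODE length, which 87.4% to 93.1% of them then did within 5%. For BCL2L11 it was 2174, 3899 and 1949 bases in knockdown and 1822, 3268 and 4539 bases in control libraries. The libraries with long values were those with many counts. Ordered by CPM or by implied length the 6 libraries had the same order, apart from the top pair, which changed places. CPM and implied length both have the count as numerator, so part of this match is built in. GENCODE lists 25 BCL2L11 transcripts, 17 of 243 to 1522 bases and 8 of 4995 to 5231 bases, with none between. Which transcripts the reads came from was not tested, since the table gives no transcripts. The longest implied length was 2.49 times the shortest for BCL2L11, 1.45 times for HRK and 1.26 times or less for the other members. BIK, with a single transcript of 953 bases, gave 942 to 943 bases throughout. Over 18568 tested genes the median ratio was 1.14, and 15.6% of genes were above 1.5.

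**Figure D3:**
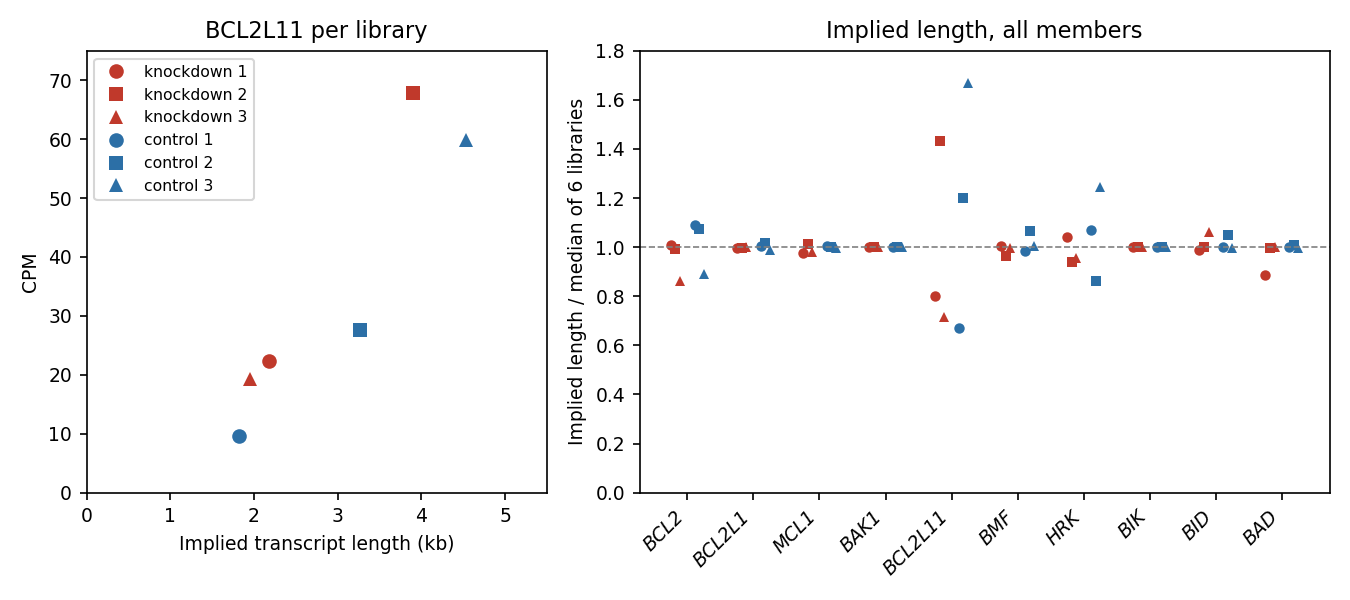
Left, CPM of BCL2L11 against the transcript length implied by the deposited values (kb) in each library, knockdown red and control blue. Right, implied length of each member divided by its median over the 6 libraries. BCL2L11 runs from 1822 to 4539 bases with more counts at greater length, though both axes of the left panel are computed from the same counts. BAK1, BIK, MCL1 and BCL2L1 keep nearly the same length in all libraries.

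BAD (ENSG00000002330; chromosome 11, 64269830 to 64284704, minus strand) had 64.6, 47.2 and 54.7 CPM in knockdown and 65.7, 74.5 and 67.9 CPM in control libraries. In CPM the groups did not overlap, though knockdown library 1 came close to the lowest control. In log2 the difference was -0.32 (standard error 0.15, interval -0.65 to 0.01; edgeR adjusted p 0.320). Without knockdown library 1 it was -0.49 (unadjusted p 0.0109, edgeR adjusted p 0.181). In TPM the groups overlapped for BAD, at 153, 108 and 121 in knockdown and 130, 128 and 131 in control libraries. The log2 fold change of BAD was -0.044 on log2(TPM + 0.5) and -0.33 with median-centring. BID (ENSG00000015475; chromosome 22, 17734138 to 17774770, minus strand), which links death receptors to the mitochondria once caspases cut it, had 71.4, 73.6 and 66.6 CPM in knockdown and 76.2, 90.7 and 77.7 CPM in control libraries. All knockdown libraries were below all controls, by little. Its log2 fold change was -0.21 (interval -0.49 to 0.07, edgeR adjusted p 0.436). BIK (ENSG00000100290; chromosome 22, 43110748 to 43129712, plus strand), a BH3-only protein of the endoplasmic reticulum, had 13.1, 12.04 and 12.5 CPM in knockdown and 11.3, 16.9 and 12.7 CPM in control libraries, which overlapped. Its log2 fold change was -0.12 (interval -0.53 to 0.30, edgeR adjusted p 0.788). Scaling by library size alone, which put the all-gene median at 0.17, turned BIK and BAK1 positive and left BAD and BID negative. BID turned positive, at 0.019, on log2(TPM + 0.5).

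Of the 10 loci, 7 overlap another gene of the table, and 2 of them one with over 50 counts in a library. No source used here says whether counting used strand, so reads of such pairs may not be told apart. ABALON (ENSG00000281376; chromosome 20, 31721507 to 31723409, plus strand), a long noncoding RNA antisense to the start of BCL2L1, had 7.501, 9.18 and 5.80 CPM in knockdown and 5.32, 3.38 and 2.54 CPM in control libraries. Like BCL2L1 it did not overlap between groups, with a log2 difference of 0.998 and a standard error of 0.30, and it did not pass either (unadjusted p 0.00958, edgeR adjusted p 0.173). It is at a far lower count than BCL2L1, with 97 to 312 counts, where BCL2L1 had 3676 to 5283. GPR137, on the strand opposite to BAD over 14643 bases, had 39.9, 27.1 and 35.3 CPM in knockdown and 31.1, 37.3 and 31.3 CPM in control libraries, so it overlapped where BAD did not. Its log2 fold change was 0.04 (edgeR adjusted p 0.937).

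Around the members, 64 further genes of the death pathway were listed in 7 groups by role, of which 62 were tested. In these 0 passed an adjusted p of 0.05 in either direction by edgeR, against 1.17% of all genes, and 10 had an unadjusted p under 0.05, against 16.5% of all genes. Of the 62, 28 were above 0 and 34 below, with a median log2 fold change of -0.03. CPM did not overlap for 18 of the 62, 9 higher and 9 lower, against 24.3% of all genes. DESeq2 called 2 of them, PMAIP1 and BIRC3, both higher, against 3.69% of all genes.

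**Figure D4:**
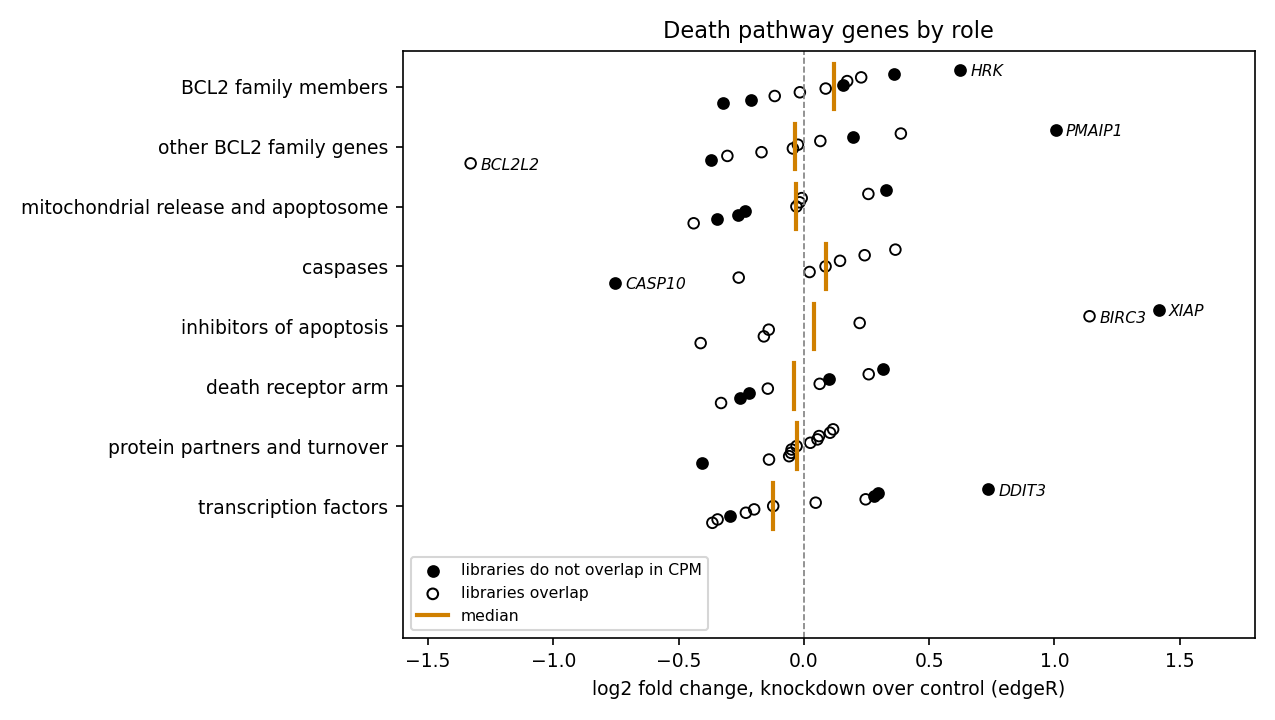
Log2 fold change, knockdown over control, of the BCL2 family members and 62 tested death pathway genes by role. Each point is a gene, filled where CPM of the libraries did not overlap, and orange bars are medians, which lie between -0.12 and 0.12. No point passed the test over all genes.

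Among 10 tested other BCL2 family genes, PMAIP1, which encodes the BH3-only protein NOXA that binds MCL1, had 17.4, 32.5 and 20.9 CPM in knockdown and 12.2, 14.1 and 9.01 CPM in control libraries. No libraries overlapped. In log2 it differed by 1.01 (standard error 0.26; edgeR adjusted p 0.132; DESeq2 adjusted p 0.011), the largest among BH3-only genes examined here. BBC3, the gene of the BH3-only protein PUMA, differed by 0.07 in log2 (edgeR adjusted p 0.876), and BAX, the other main effector, by -0.31 (edgeR adjusted p 0.458). BCL2L2, a survival gene, had 14.3, 12.6 and 9.68 CPM in knockdown and 45.5, 42.7 and 3.64 CPM in control libraries, where control library 3 was the lowest of all 6. Its log2 fold change was -1.33 (edgeR adjusted p 0.388) and -1.86 without control library 3 (edgeR adjusted p 0.0121). That fit called 0.439% of all genes and 0 members, with 2 members, HRK and BMF, at an unadjusted p under 0.05 beside 11.6% of all genes. The implied length of BCL2L2 was 1521, 1230 and 1052 bases in knockdown and 2968, 2990 and 699 bases in control libraries. In TPM BCL2L2 had 16.2, 19.3 and 16.8 in knockdown and 25.1, 20.4 and 8.23 in control libraries, with a median-centred log2 fold change of -0.19. Its locus overlaps the read-through gene BCL2L2-PABPN1, with 165, 248 and 192 counts in knockdown and 285, 184 and 289 in control libraries. HOMEZ, on the opposite strand over 658 bases, had 398, 325 and 369 counts in knockdown and 309, 380 and 998 in control libraries. The counts of BCL2L2 are uncertain, and the part of these overlapping genes in them was not tested. The survival genes BCL2A1 and BCL2L10 were too low to test: BCL2A1 had 3 counts in knockdown library 1, BCL2L10 had 6 in control library 1, and both had 0 in all other libraries.

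Past the mitochondria, the 9 genes of mitochondrial release and the apoptosome had 2 above 0 and 7 below (median -0.03). CYCS, cytochrome c, was at 79.6, 124 and 119 CPM in knockdown and 128, 150 and 133 CPM in control libraries, with no overlap (log2 fold change -0.35, edgeR adjusted p 0.372). ENDOG, a mitochondrial nuclease gene, had -0.44 (edgeR adjusted p 0.346). Of 7 caspase genes 5 were above 0 and 2 below (median 0.09). CASP10, an initiator of the death receptor arm, had 18.3, 16.3 and 14.6 CPM in knockdown and 20.0, 19.3 and 43.6 CPM in control libraries, so that control library 3 alone was high. Its log2 fold change was -0.75 (edgeR adjusted p 0.278), and -0.27 without control library 3, in which its implied length was 3611 bases against 1533 to 2162 elsewhere. CASP2, another initiator, differed by 0.37 in log2 (edgeR adjusted p 0.485), and it was at 32.6 CPM in knockdown library 1 against 16.5 to 20.4 CPM in the others.

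The 6 inhibitor of apoptosis genes were split 3 and 3 (median 0.04). XIAP, which blocks caspases directly, had 46.7, 17.3 and 14.3 CPM in knockdown and 11.4, 5.86 and 12.02 CPM in control libraries. No libraries overlapped, and knockdown library 1 was far above the rest, with an implied length of 5676 bases against 2436 to 2965 in the others. The difference was 1.42 in log2 (standard error 0.46, edgeR adjusted p 0.199), the largest of the 62, and 0.64 without that library. BIRC3, an NF-kB target that acts at the TNF receptor, had 12.4, 36.0 and 29.003 CPM in knockdown and 11.2, 9.30 and 14.6 CPM in control libraries. Knockdown library 1 lay among the controls. The log2 fold change was 1.14 (standard error 0.36, edgeR adjusted p 0.188), and without knockdown library 1 it was 1.42 with an edgeR adjusted p of 0.0443, beside 0.519% of all genes called in that fit. In it 0 members were called, and 2, HRK and BAD, had an unadjusted p under 0.05 beside 18.5% of all genes.

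In the death receptor arm 4 of 8 genes were above 0 and 4 below (median -0.04). TNFRSF1A, the main TNF receptor, had 117, 109 and 107 CPM in knockdown and 84.2, 85.8 and 97.4 CPM in control libraries without overlap (log2 fold change 0.32, edgeR adjusted p 0.247). In TPM it had 192, 125 and 154 in knockdown and 78.9, 69.5 and 96.9 in control libraries. On log2(TPM + 0.5) the difference was 0.93 (limma adjusted p 0.0441), and 0.64 with median-centring (limma adjusted p 0.233). TRADD, the adaptor of that receptor, had -0.33 (edgeR adjusted p 0.371). Among 11 genes for partners and turnover of member proteins (median -0.03), DYNLL1, the dynein light chain that anchors BIM, had 158, 137 and 140 CPM in knockdown and 189, 198 and 190 CPM in control libraries. These did not overlap (log2 fold change -0.41, unadjusted p 0.00596, edgeR adjusted p 0.149). DYNLL2, which anchors BMF, differed by -0.06 in log2 (edgeR adjusted p 0.829). BAG6, a chaperone gene, had -0.14 (edgeR adjusted p 0.623). Of 11 transcription factors known to act on BCL2 family genes, 5 were above 0 and 6 below (median -0.12). DDIT3, which encodes CHOP, had 34.8, 22.5 and 23.0 CPM in knockdown and 13.8, 22.1 and 12.3 CPM in control libraries, apart by little at control library 2 (log2 fold change 0.73, edgeR adjusted p 0.232). ATF4, the stress factor whose targets include DDIT3, had 742, 624 and 666 CPM in knockdown and 813, 883 and 793 CPM in control libraries. All knockdown libraries were below all controls, with a log2 fold change of -0.29 (unadjusted p 0.0253, edgeR adjusted p 0.242). The other factors without overlap in CPM were FOXO1, which can drive BCL2L11, at 0.30 (edgeR adjusted p 0.299) and MITF at 0.28 (edgeR adjusted p 0.439). In TPM FOXO1 overlapped, with a median-centred log2 fold change of -0.02 (limma adjusted p 0.976). MITF did not overlap in TPM, with a median-centred value of 0.51 (limma adjusted p 0.208).

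Genes with the profile most like that of HRK over the 6 libraries were MYCL, RNF144B and DLC1. Their centred log2 CPM differed from that of HRK by a root mean square of 0.0492, 0.0577 and 0.0683 among 12851 genes searched. MYCL, a MYC family transcription factor gene, had 7.42, 8.65 and 6.86 CPM in knockdown and 5.29, 5.21 and 4.79 CPM in control libraries. The nearest to BMF were PLPP3, CNGB1 and C1orf116, at 0.0420, 0.0434 and 0.0440. PLPP3, a lipid phosphatase gene, had 33.1, 30.8 and 30.6 CPM in knockdown and 23.8, 26.2 and 25.97 CPM in control libraries. None of these 6 genes passed the edgeR test, with adjusted p from 0.134 to 0.278. They were picked by likeness to HRK or BMF over the same 6 libraries, so their p-values are no separate result.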

How the data were processed

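RNA of 6 PC9 libraries, 3 per group, was sequenced on an Illumina platform, mapped to a reference genome and counted per gene by the authors, per the labels' protocols. Whole-number counts, TPM and FPKM were deposited per gene and library. No source used here names the aligner, the counting program or its strand setting. The submitters' processing notes name hg19, but 55964 of 57836 genes shared with GENCODE release 29 (96.8%), and all 10 members, have the same position as on GRCh38, so coordinates are GRCh38. Groups came from sample titles.

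Deposited counts were filtered with filterByExpr at 10 counts, scaled by TMM and compared by the quasi-likelihood test of edgeR 4.0.16 (R 4.3.3). P-values were adjusted by Benjamini-Hochberg over 19040 genes. Standard errors and 95% intervals were back-calculated from the F statistic. The deposited TPM, on which the median of all genes differed by 0.24 log2 units between groups, gave levels and, as log2(TPM + 0.5) with limma 3.58.1, an alternative test; fold changes on that scale understate those of low genes. FPKM deposited by the authors served only for implied lengths. Scripts were tested on simulated data. Libraries of a group differed beyond sampling noise, with a chi-square per degree of freedom of 32.4 to 83.3.

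Alternatives were other scalings and filters, DESeq2 1.42.0, limma-voom, a replicate block and leaving out each library, and, chosen after seeing the data, the 3 TPM tests. The members and lists were chosen with earlier results of these data known. Named genes were all members and the 2 tested genes of each list with the largest difference at 1 log2 CPM or more. Beside these came the 3 genes nearest in profile to each of the 2 members of lowest p. ABALON, GPR137, BCL2L2-PABPN1, HOMEZ, BCL2A1, BCL2L10, BBC3, BAX, VDAC2, DYNLL2, ATF4, FOXO1 and MITF were named outside this rule, after values were seen. One gene that the rule names is not reported here. Figures were drawn with matplotlib 3.10.9.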

Additional observations from a re-analysis of the deposited data

How the results depend on the processing

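The count of members past the test was 0 under all 17 alternatives, and member log2 fold changes kept their sign in 155 cases and turned in 15, none of which passed. BAK1 was at 0.0026 with upper-quartile scaling, 0.11 with library size only, 0.00069 with the stricter filter, and 0.20 on log2(TPM + 0.5) or log2(TPM + 0.1). BIK was at 0.011 with library size only and 0.13 on either uncentred TPM scale, where BID was at 0.019. Without 1 library, MCL1 ran from -0.10 to 0.16, BCL2L11 from -0.64 to 0.97 (-0.26 without control library 1), BAK1 from -0.12 to 0.067, BIK from -0.24 to 0.065 and CASP2 from -0.0066 to 0.55. On those TPM scales BCL2L2 was at 0.097 and 0.10, CASP10 at 0.041 and 0.042, and BAG6 at 0.080. Median-centred TPM turned no sign. Pathway genes called numbered 0 at first, 2 with DESeq2, 2 on each uncentred TPM scale (TNFRSF1A and VDAC2) and 0 to 1 without 1 library. Of all genes 223 were called, 147 with no filter, 82 with the stricter filter, 701 with DESeq2, 389 and 375 on the uncentred TPM scales, 136 with median-centring and 64 to 114 without 1 library. The replicate block left 34 genes and 0 members. Deviations from the group means of libraries that share a number correlated at 0.01, -0.08 and -0.03, which gives no pairing. The cause of these shifts was not tested. BCL2 had the fewest counts of the members, 58 to 145 per library, and BCL2L11 the largest standard error. How far depth limits either was not tested.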
